A study of Mus musculus with 9 samples.

Results

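The proteasome genes of mouse peritubular myoid cells were followed through heat stress. They were taken by symbol: Psma to Psmg followed by a digit, which includes Psme1 to Psme4, together with Pomp and Adrm1. Of the 17559 genes with values, 52 were found this way. Among them Psmc3ip shares the letters but is a partner in meiotic recombination and no part of the proteasome, which leaves 51 proteasome genes. The cells were primary, from the testis of C57BL/6J mice, and were grown at 37 °C in DMEM/F12 with 10% serum. Heat was a water bath at 42 °C for 30 min, after which dishes returned to the incubator. The groups were cells collected 1 h after heat, cells collected 6 h after heat and untreated control cells, with 3 libraries each. The labels do not say whether replicates came from separate animals or cultures, so the p-values rest on the spread between libraries, and that spread may be technical only. The series asks what heat stress does to these cells, which form the contractile wall of the seminiferous tubule.

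The proteasome degrades proteins tagged with ubiquitin. Its 20S core is a barrel of stacked alpha and beta rings, in which only a few beta subunits cut peptide bonds, and its 19S cap has a base of ATPases that unfold the substrate and a lid that removes ubiquitin. Other activators can take the place of the cap, dedicated chaperones put the particle together, and interferons replace the catalytic subunits by those of the immunoproteasome. Heat damages proteins, and the heat-shock response raises chaperones in the cytosol.

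Each library held an estimated 18920000 to 19960000 reads, from the smallest steps in the values. The summed level of 6 myoid markers was 3209 to 4718 FPKM (fragments scaled to transcript length and library size). Acta2, Tagln and Myl9 made up most of this sum. The markers Myh11 (8.41 to 48.84 FPKM), Des (11.02 to 63.7 FPKM) and Cnn1 (18.38 to 119.39 FPKM) varied more than the sum. Each of these was lowest in 6 h replicate 2 and highest in control 3. Leydig markers summed to 872 to 2138 FPKM, with Cyp17a1 and Lhcgr under 0.5 FPKM throughout. Control 3 stood apart. Its Sertoli markers summed to 3020 FPKM, nearly all of it Clu and Cldn11, against 197 to 469 FPKM in the other libraries, with Amh and Fshr under 0.5 FPKM in every library. The heat itself was visible in Hspa1a, the inducible HSP70, with a log2 change of 7.14 at 1 h (adjusted p = 3.7e-06). At 6 h the sum of 6 heat-shock genes was 4239, 577 and 1746 FPKM. The sum in replicate 2 thus lay at the level of the controls (592, 631 and 734 FPKM). In that library Hspa1a, at 27.07 FPKM, still lay above every control (6.92 to 12.29 FPKM). So did Hspa1b, at 52.57 FPKM beside 13.97 to 29.8 FPKM in control. Dnajb1, Hsph1 and Hsp90aa1 lay below every control there, and Hspb1 lay within the control range. The part of these differences in the proteasome values was not tested. In such bulk libraries, fewer cells of a type and less RNA per cell cannot be told apart.

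The proteasome transcripts were abundant and close to each other in level. The 32 constitutive subunits of the 26S particle (14 of the 20S core, 18 of the cap) had means over the 9 libraries of 50.6 FPKM (Psmd11) to 215 FPKM (Psmb7), with a median of 109 FPKM, where all genes with values had a median of 3.88 FPKM. All 32 lay between the 90.7 and 97.9 percentile of genes with values. The 20S subunits had a median of 144 FPKM and the cap subunits one of 94.7 FPKM. The highest library of a subunit was 1.16 to 1.84 times its lowest, with a median of 1.44. The 1269 tested genes with a mean in the same range had a median of 1.73.

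**Figure D1:**
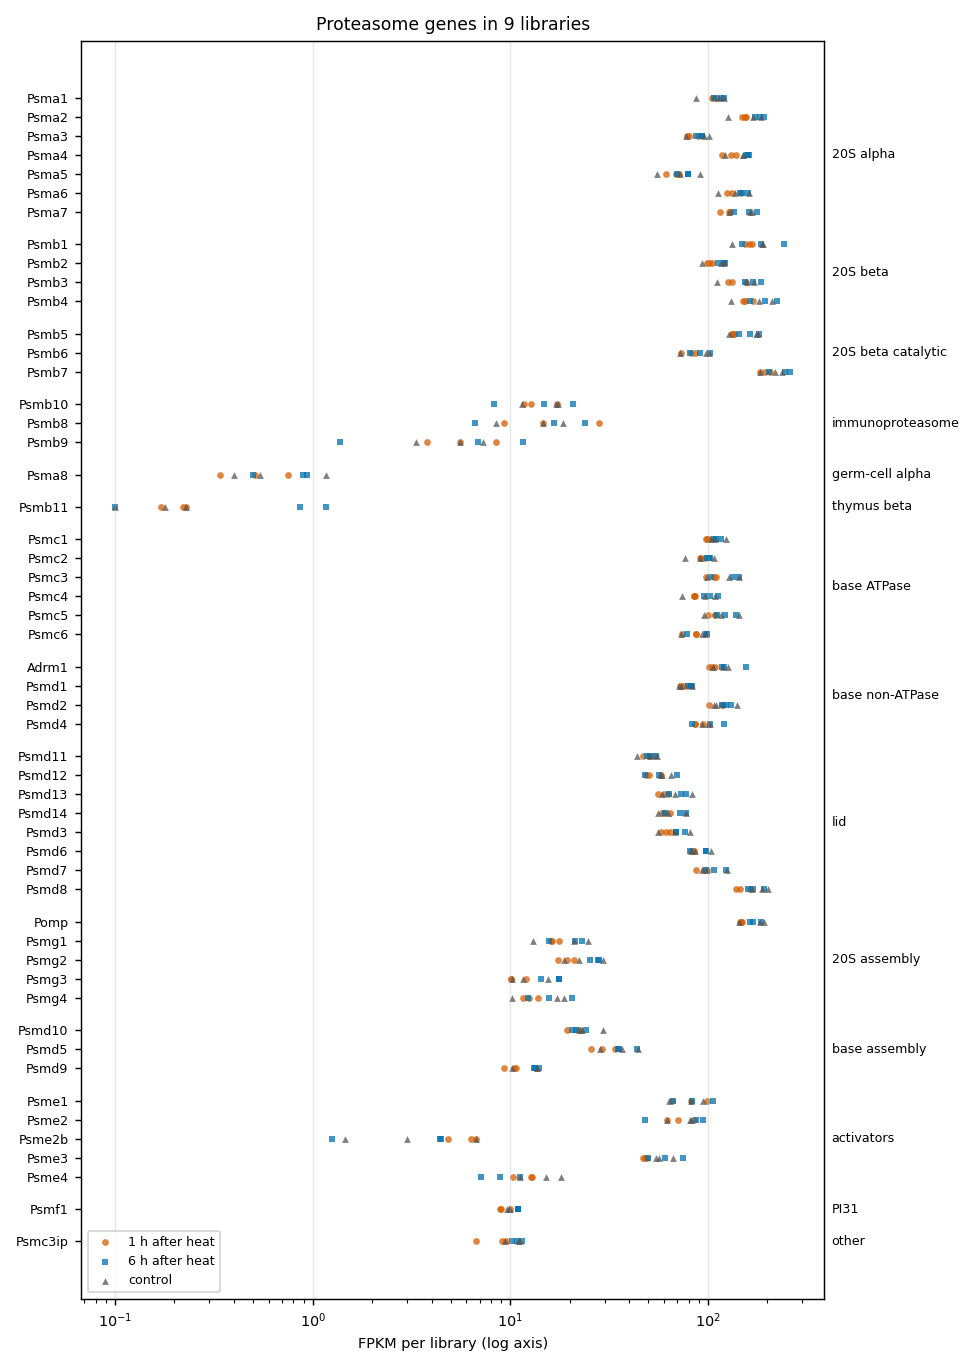
FPKM of the 52 genes in each of the 9 libraries, on a log axis, grouped by role: circles for 1 h after heat, squares for 6 h after heat and triangles for control. The constitutive subunits of the 20S core and the 19S cap sit together between 43.7 and 261 FPKM, the chaperones other than Pomp lie lower, and Psma8 and Psmb11 lie at or below 1.17 FPKM.

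The assembly chaperones fell into 2 levels. Pomp, which helps the rings of the core to join and is then degraded, had a mean of 164 FPKM, among the core subunits it serves. The other 7 chaperones had means of 12.05 to 34.7 FPKM. Of the genes of other tissues, Psma8, the alpha subunit of germ cells, had 0.34 to 1.17 FPKM, and Psmb11, the catalytic subunit of the thymic cortex, had 0.10 to 1.17 FPKM. A gene had to reach 1 FPKM in 3 or more of the 9 libraries to be tested, which neither did, so 50 of the 52 genes, Psmc3ip among them, were tested. Psmc3ip had a mean of 9.92 FPKM. Psma4, Psmd1, Psmd13, Psme1, Psme2b and Psmc3ip overlap other annotated genes, by 4 bp (Psme1) to their whole length (Psmd13, with Cyp2e1 at a mean of 0.904 FPKM). The sources used here do not give a strand setting, so reads in the shared stretches are of uncertain origin.

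Promoter windows were available for 44 of the 52 genes, Psmc3ip among them and left out of the shares below, in RefSeq's annotation of GRCm38.p6, from 250 bases before the start to 50 after it, on the gene's own strand. Psma8, Psmb1, Psmb2, Psmb7, Psmc3, Psmd3, Psmd7 and Psmg2 were not among them. The 6 below are examples that hold the ETS core or the antioxidant response element core, from genes that return in the comparisons. Other such genes, Psmd12 and Psmb6 among them, are not shown. Each is the 100 bases before a start, with the matched motif in capitals (CCGGAAGT, read as ACTTCCGG on the other strand, in the first 4 and TGACNNNGC in the last 2).
Pomp (chr5:147860528-147860627, plus strand): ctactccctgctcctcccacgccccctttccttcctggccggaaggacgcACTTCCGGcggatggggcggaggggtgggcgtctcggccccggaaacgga
Psmc1 (chr12:100110102-100110201, plus strand): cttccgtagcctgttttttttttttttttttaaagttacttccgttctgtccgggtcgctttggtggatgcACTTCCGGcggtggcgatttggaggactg
Psmd6 (chr14:14120946-14121045, minus strand): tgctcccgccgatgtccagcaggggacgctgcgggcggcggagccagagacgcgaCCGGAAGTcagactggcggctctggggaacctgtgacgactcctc
Psme4 (chr11:30771675-30771774, plus strand): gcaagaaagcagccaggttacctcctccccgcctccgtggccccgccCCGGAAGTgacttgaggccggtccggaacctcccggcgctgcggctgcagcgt
Psmb5 (chr14:54617996-54618095, minus strand): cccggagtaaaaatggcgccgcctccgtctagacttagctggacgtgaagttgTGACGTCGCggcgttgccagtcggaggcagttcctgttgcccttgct
Psmd9 (chr5:123228090-123228189, plus strand): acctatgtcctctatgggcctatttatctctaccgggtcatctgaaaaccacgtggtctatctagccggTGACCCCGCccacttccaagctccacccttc
The ETS core CCGGAAGT, bound by ETS family factors, was found in 10 of 43 proteasome genes (23.3%) and in 4.31% of 27025 genes, counting both strands. The GC box GGGCGG, bound by Sp1 family factors, was found in 25 (58.1%) and in 38.2% of all genes. The antioxidant response element core TGACNNNGC, a binding sequence of NRF1 and NRF2, was found in 7 (16.3%) beside 14% of all genes. These were Adrm1, Psmb5, Psmb6, Psmc6, Psmd9, Psmd12 and Psme4. Of heat-shock elements, a pair of units (GAANNTTC or TTCNNGAA) was found in 5 proteasome genes (11.6%) and in 17% of all genes. A run of 3 such units in a row, each turned against the one before, was found in 0 proteasome genes and in 0.662% of all genes. Of 5 heat-shock genes with windows, 1 held a run of 3 units (Hsph1). Hspa1a, Hspa1b and Hspb1 held no such run but did hold a pair of units, and Dnajb1 held neither. Runs of 3 were thus absent even from the window of Hspa1a, and so rare over all genes that 0 of 43 shows little. The CCAAT box was found in 15 (34.9%) beside 41.1%. In the window of Psmd9 the antioxidant match overlapped a GC box, and in that of Psme4 a GC box overlapped the ETS match. The 27025 genes are all those with a window, with values here or not, and were not matched to the proteasome genes in level. A match is a run of letters and was not tied to any factor's binding here.

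**Figure D2:**
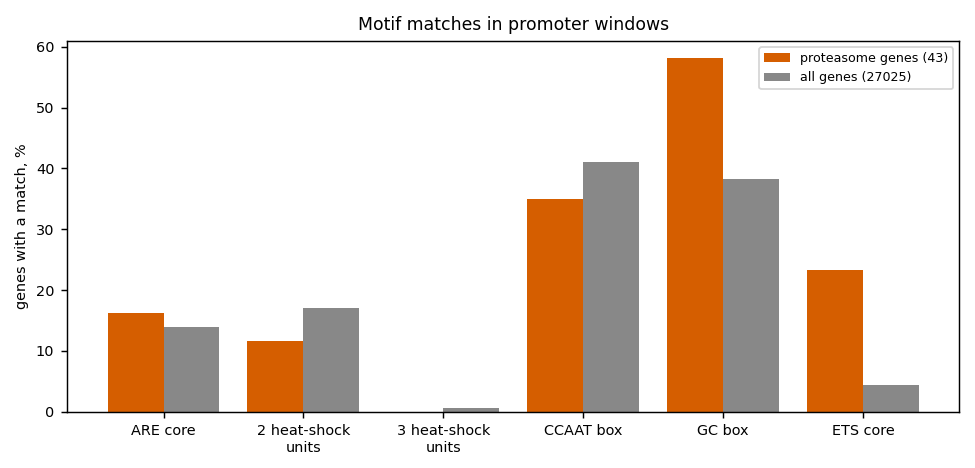
Share of genes, in percent, with at least 1 match to each motif in the promoter window, for the 43 proteasome genes with a window (left bars) and all 27025 genes (right bars). The ETS core stands at 23.3% in proteasome genes beside 4.31% of all genes. Runs of 3 heat-shock units were rare in both sets, in 0 proteasome genes and 0.662% of all genes.

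At 1 h after heat, no proteasome gene passed the test. Of the 50 tested genes, which count Psmc3ip here and in what follows, 0 were called higher and 0 lower (limma, adjusted p below 0.05 over 11460 genes), where 0.157% of all genes were called higher and 0% lower. Without adjustment, at p below 0.05, the counts were also 0 in both directions, beside 2.76% and 8.05% of all genes. The smallest adjusted p was 0.486, for Psmd8. The median log2 change of the 50 genes was -0.13, with 43 below 0, but the median over all genes was -0.17 with 76.2% below 0. The sign follows the scaling: median-of-ratios scaling brought the median of all genes to -0.013, and that of the 50 genes to 0.040, with 33 of 50 above 0, while quantile normalization gave -0.075. Relative to the median of all genes, 33 were higher and 17 lower. Libraries of the groups did not overlap for 0 genes in the higher direction (4.49% of all genes) and for 3 in the lower direction (6%, beside 21.4% of all genes), which were Psmc1, Psmd8 and Psme3. Without control 3 the median was -0.25, with 49 of 50 below 0, beside -0.15 over all genes. Then 32 did not overlap in the lower direction, 64% beside 35.2% of all genes, and 0 were called.

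At 6 h no proteasome gene passed the test against control either. Of 50, 0 were called higher and 0 lower, and over all genes 0% were called in each direction. Without adjustment 1 gene lay lower at p below 0.05 (Psme4) and 0 higher, beside 3.35% and 1.27% of all genes. The median log2 change was 0.073, with 41 above 0 and 9 below, beside -0.060 over all genes with 39.9% above and 60.1% below 0. Median-of-ratios scaling gave 0.12 and quantile normalization 0.071. The sign rested on control 3, without which the median was -0.038 with 34 of 50 below 0. The median and share below 0 of all genes without control 3 are not given here. Psma4, a subunit of the alpha ring, and Psmf1, the inhibitor PI31, were the 2 genes whose 6 h libraries all lay above the controls (4%, beside 1.89% of all genes). In the lower direction there were 0, beside 5.32%.

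Between 6 h and 1 h, the proteasome genes lay slightly higher at 6 h, by an amount that did not pass the test in any of them. Of 50, 0 were called higher and 0 lower, beside 0% and 0.279% of all genes. Without adjustment 3 genes (6%) lay higher at p below 0.05 and 0 lower, beside 8.45% and 3.19% of all genes. The 3, a share below that of all genes, were the assembly chaperones Psmg3, Psmg2 and Psmd9. The median log2 change was 0.21, with 45 above 0, beside 0.095 over all genes with 62.9% above 0. It was 0.092 after median-of-ratios scaling, which brought the median of all genes to -0.012, and 0.15 after quantile normalization. All 32 constitutive subunits had a change above 0 with the deposited scaling, from 0.040 (Psmd11) to 0.34 (Psma7), while 28 did after median-of-ratios scaling and 31 after quantile normalization. The 6 h libraries all lay above the 1 h libraries for 21 genes (42%, beside 15.2% of all genes), and this count was 8 (16%, beside 9%) after median-of-ratios scaling and 15 (30%, beside 12.6%) after quantile normalization. It was 35 (70%, beside 29.9%) without 6 h replicate 1 and 27 (54%, beside 31.9%) without 6 h replicate 2. In the lower direction 1 gene, Psme2b, did not overlap (2%, beside 4.97%).

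The intervals show what size of change the data leave room for. The 95% interval of the log2 change lay within -1 and 1, that is within 2-fold, for 47 of 50 genes at 1 h against control, 46 at 6 h against control and 47 at 6 h against 1 h. The median SE was 0.16. The wider ones were Psme2b, Psmb8 and Psmb9 in each comparison and Psme4 at 6 h against control.

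**Figure D3:**
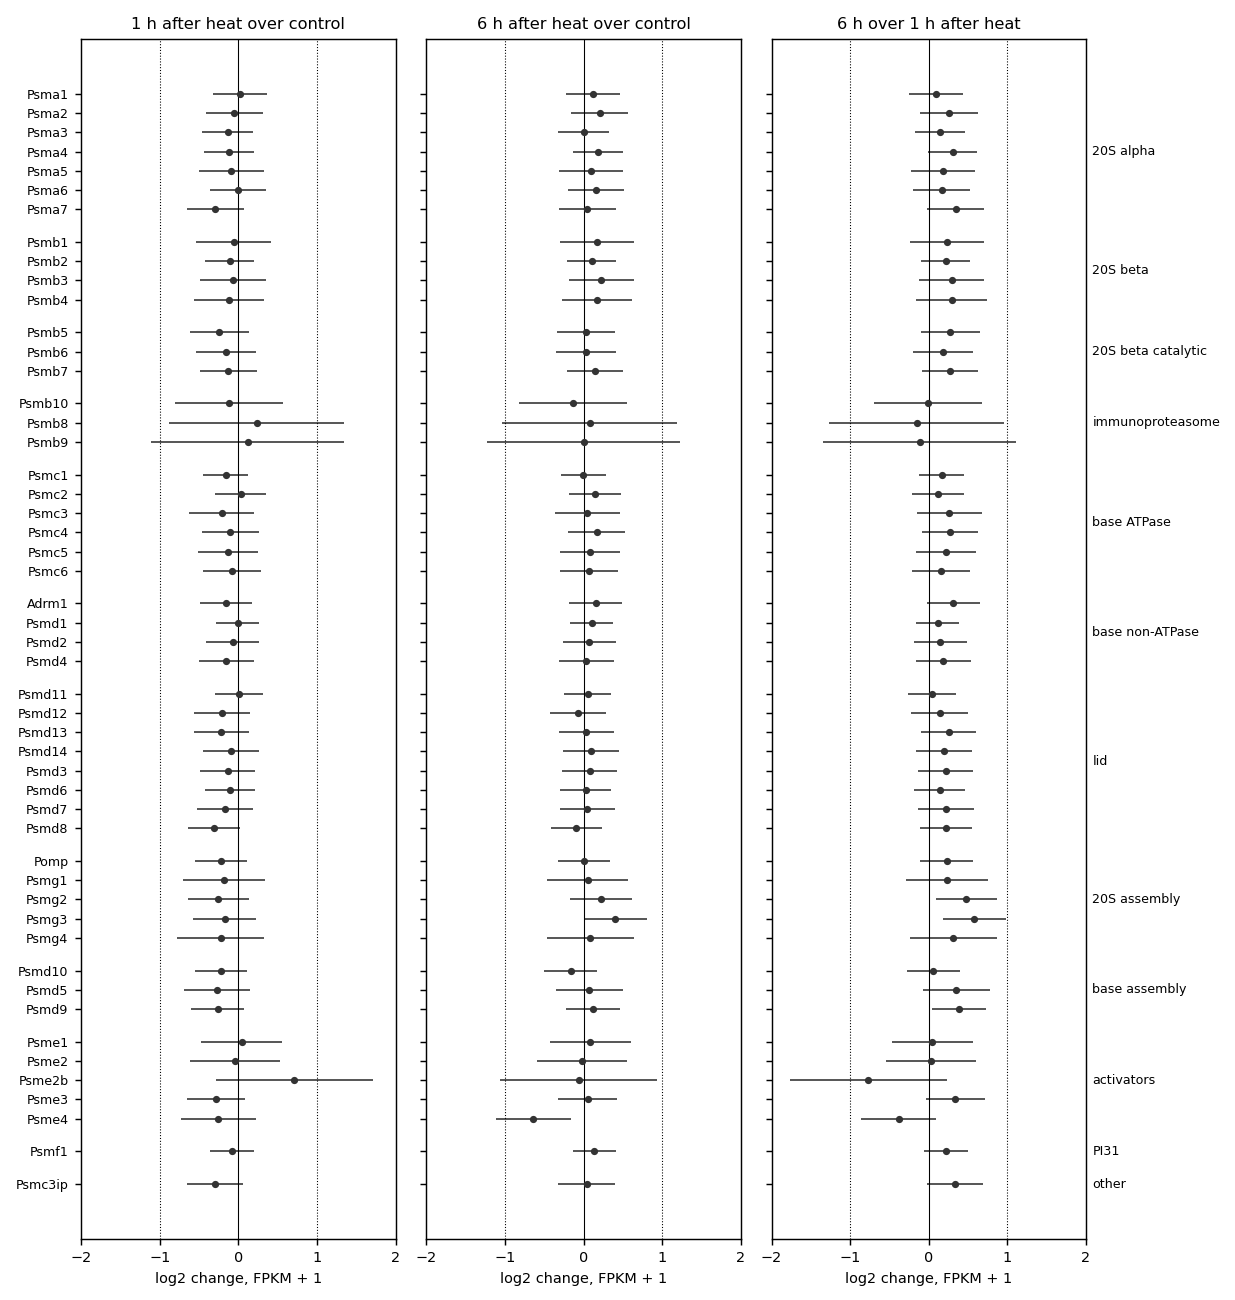
Log2 change of the 50 tested genes on the log2(FPKM + 1) scale with its 95% interval from limma, for 1 h after heat over control (left), 6 h after heat over control (middle) and 6 h over 1 h (right). Dotted lines mark a 2-fold change. The constitutive subunits lie between -0.31 and 0.34 in all panels, and the widest intervals belong to Psmb8, Psmb9 and Psme2b.

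The catalytic subunits of the standard core are Psmb5, with chymotrypsin-like activity, Psmb6, with caspase-like activity, and Psmb7, with trypsin-like activity. Psmb7 (NCBI gene 19177, chromosome 2, 38588046 to 38643906, minus strand), coordinates being those of the table on mm10, had 183, 207 and 194 FPKM at 1 h, 203, 245 and 261 FPKM at 6 h and 219, 237 and 185 FPKM in control. Psmb5 (NCBI gene 19173, chromosome 14, 54614120 to 54617995, minus strand) had 133, 132 and 136 FPKM at 1 h, 143, 163 and 182 FPKM at 6 h and 174, 178 and 128 FPKM in control, so its 6 h libraries lay above its 1 h libraries. Psmb6 had 86.3, 82.4 and 73.3 FPKM at 1 h, 81.0, 91.6 and 102 FPKM at 6 h and 97.7, 102 and 72.3 FPKM in control. For each of the 3, control 1 and 2 were among the higher libraries and control 3 was at or next to the lowest. The log2 difference of Psmb5 from control was -0.24 (SE 0.17, adjusted p = 0.566) at 1 h and 0.031 (SE 0.17, adjusted p = 0.985) at 6 h, and that between 6 h and 1 h was 0.27 (SE 0.17, adjusted p = 0.556). The intervals for Psmb7 were -0.48 to 0.23 at 1 h and -0.21 to 0.50 at 6 h.

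Of the alpha ring, which gates the entry of the barrel, Psma7 had 129.8, 127 and 115 FPKM at 1 h, 136, 178 and 161 FPKM at 6 h and 163, 167 and 128 FPKM in control. All its 6 h values lay above all its 1 h values, with a difference of 0.34 (SE 0.16, adjusted p = 0.458), and its 1 h values overlapped the controls through control 3. Psma4 had 118, 131 and 139 FPKM at 1 h, 161, 159.8 and 158 FPKM at 6 h and 150.2, 150.4 and 122 FPKM in control. The 6 h libraries were the 3 highest and lay close together. The change of Psma4 was 0.18 (SE 0.14, adjusted p = 0.877) against control and 0.30 (SE 0.14, adjusted p = 0.448) against 1 h. The other alpha subunits had 1 h changes from -0.14 (Psma3) to 0.019 (Psma1). The 4 beta subunits without catalytic activity, Psmb1 to Psmb4, ranged from 93.2 to 243 FPKM over the libraries. Their changes were -0.12 to -0.061 at 1 h, 0.11 to 0.22 at 6 h and 0.21 to 0.29 between the times, with no adjusted p below 0.574.

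In the base of the cap, Psmc4, an ATPase subunit, had 86.0, 85.5 and 84.8 FPKM at 1 h, 95.7, 112 and 102 FPKM at 6 h and 96.2, 109 and 74.0 FPKM in control. Its 1 h libraries lay close together, while control 3 was the lowest of all and 6 h replicate 2 the highest. Psmc1, another ATPase of the ring, with an ETS core in the promoter shown above, had 99.2, 101 and 98.4 FPKM at 1 h, 108, 110.1 and 117 FPKM at 6 h and 108, 124 and 103 FPKM in control. The 1 h values of Psmc1 were the 3 lowest, a difference from control of -0.16 (SE 0.13, adjusted p = 0.597). Psmd1, the large scaffold of the base, had 74.7, 78.7 and 72.6 FPKM at 1 h, 83.0, 82.3 and 79.4 FPKM at 6 h and 73.2, 83.1 and 71.4 FPKM in control, and had the smallest range of the 32 subunits, its highest library 1.16 times its lowest. Adrm1, a ubiquitin receptor, had 105, 101 and 108 FPKM at 1 h, 156, 118 and 121 FPKM at 6 h and 119, 127 and 106 FPKM in control. The 6 h libraries of Adrm1 lay above the 1 h ones, with replicate 1 highest, and the difference was 0.31 (SE 0.15, adjusted p = 0.458). Psmd4, the other ubiquitin receptor of the base, had 95.0, 86.2 and 85.7 FPKM at 1 h, 83.3, 121 and 103 FPKM at 6 h and 93.7, 101 and 102 FPKM in control. Psmd4 did not follow that order, since 6 h replicate 1 was its lowest library. The 6 ATPases as a group ranged from 72.8 to 144 FPKM, with changes of -0.21 to 0.028 at 1 h, -0.0021 to 0.17 at 6 h and 0.11 to 0.27 between the times.

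In the lid, Psmd14, the enzyme that cuts ubiquitin chains off the substrate, had 58.5, 64.7 and 60.2 FPKM at 1 h, 72.2, 60.9 and 77.2 FPKM at 6 h and 63.2, 77.7 and 56.2 FPKM in control. The groups overlapped in each comparison, with changes of -0.091 at 1 h and 0.098 at 6 h. Psmd11, known in human embryonic stem cells to limit 26S assembly, had 50.4, 53.4 and 46.8 FPKM at 1 h, 49.4, 50.9 and 54.5 FPKM at 6 h and 50.8, 55.4 and 43.7 FPKM in control, the lowest mean of the 32. Psmd12, a structural subunit, had 48.6, 57.6 and 50.3 FPKM at 1 h, 69.5, 48.1 and 56.4 FPKM at 6 h and 58.7, 65.3 and 57.2 FPKM in control, its highest and lowest libraries both at 6 h. Psmd8, a further lid subunit, had 164, 146 and 138 FPKM at 1 h, 169.8, 160.1 and 192 FPKM at 6 h and 188, 202 and 167 FPKM in control. The 1 h libraries of Psmd8 all lay under the controls, a change of -0.31 (SE 0.15, adjusted p = 0.486), the smallest adjusted p of any proteasome gene in that comparison. Psmd6, whose promoter with an ETS core is shown above, had 82.2, 85.4 and 83.9 FPKM at 1 h, 98.1, 81.5 and 98.0 FPKM at 6 h and 82.3, 104 and 86.4 FPKM in control, with overlap in every comparison.

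The assembly chaperones had a median log2 change of 0.33 between 6 h and 1 h, although none passed the test. The median was 0.21 for the 32 constitutive subunits and 0.095 over all genes. All 8 chaperones were above 0, beside 62.9% of all genes. After either other scaling 7 of 8 were, with medians of 0.21 (median-of-ratios) and 0.24 (quantile). Psmg3 (NCBI gene 66506, chromosome 5, 139823594 to 139826843, minus strand), which with Psmg4 guides the alpha ring, had 10.1, 12.1 and 10.1 FPKM at 1 h, 14.3, 17.7 and 17.6 FPKM at 6 h and 11.6, 15.5 and 10.2 FPKM in control. The 6 h libraries of Psmg3 lay above all 1 h libraries and overlapped control 2. The change was 0.58 against 1 h (SE 0.18, unadjusted p = 0.00974, adjusted p = 0.277) and 0.40 against control (unadjusted p = 0.0502, adjusted p = 0.877). Psmg2, which pairs with Psmg1, had 20.9, 19.3 and 17.4 FPKM at 1 h, 25.3, 28.3 and 27.7 FPKM at 6 h and 22.2, 29.5 and 18.7 FPKM in control, and a change of 0.48 (SE 0.17, adjusted p = 0.353) between the times. Psmg1 had 16.2, 17.8 and 16.1 FPKM at 1 h, 15.7, 22.9 and 21.2 FPKM at 6 h and 21.0, 24.9 and 13.1 FPKM in control. It overlapped between all groups, with 6 h replicate 1 low and control 2 high. Pomp had 148, 145 and 147 FPKM at 1 h, 162, 169 and 185 FPKM at 6 h and 183, 192 and 144 FPKM in control, so its 1 h libraries lay between control 3 and all others. Its change was -0.22 (SE 0.15, adjusted p = 0.557) at 1 h.

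Of the chaperones that hold the base ATPases in pairs, Psmd9 had 10.4, 10.7 and 9.27 FPKM at 1 h, 13.3, 13.2 and 14.1 FPKM at 6 h and 13.6, 13.7 and 10.2 FPKM in control. Its 6 h libraries lay above all 1 h libraries, with a change of 0.38 (SE 0.15, adjusted p = 0.380). The promoter of Psmd9 shown above holds the antioxidant element core, found in 16.3% of proteasome genes and 14% of all genes. Any link of this motif to the change was not tested. Psmd5 had 29.3, 34.0 and 25.7 FPKM at 1 h, 35.1, 35.4 and 43.6 FPKM at 6 h and 36.7, 44.1 and 28.4 FPKM in control, with the same order of groups and a change of 0.35 (SE 0.19, adjusted p = 0.512). Psmd10, also called gankyrin, had 19.3, 22.6 and 21.7 FPKM at 1 h, 21.4, 20.6 and 24.2 FPKM at 6 h and 22.4, 29.5 and 23.1 FPKM in control. Its values overlapped in each comparison, and control 2 was the highest. At 1 h all 8 chaperones lay below control, with a median of -0.22 beside -0.17 over all genes, and the smallest adjusted p was 0.518. All 8 also lay below control after median-of-ratios scaling (median -0.055) and quantile normalization (median -0.080). Of the 32 constitutive subunits 29 lay below control at 1 h with the deposited scaling, 27 after quantile normalization and 6 after median-of-ratios scaling.

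The immunoproteasome genes varied between replicates more than between groups. Psmb8, Psmb9 and Psmb10 replace Psmb5, Psmb6 and Psmb7 in cells that present antigen or have met interferon. Psmb8 (NCBI gene 16913, chromosome 17, 34198195 to 34201454, plus strand) had 28.2, 14.6 and 9.27 FPKM at 1 h, 6.65, 23.9 and 16.7 FPKM at 6 h and 18.4, 14.7 and 8.44 FPKM in control. Psmb9 (NCBI gene 16912, chromosome 17, 34182099 to 34187330, minus strand) had 8.48, 5.55 and 3.81 FPKM at 1 h, 1.37, 11.6 and 6.87 FPKM at 6 h and 7.25, 5.55 and 3.34 FPKM in control. Psmb10 had 17.3, 12.7 and 11.8 FPKM at 1 h, 8.23, 20.8 and 14.8 FPKM at 6 h and 17.4, 17.1 and 11.5 FPKM in control. In all 3 genes the groups overlapped, 6 h replicate 1 was the lowest library and control 3 the next lowest. The log2 changes at 1 h were 0.24 (SE 0.50, adjusted p = 0.831) for Psmb8 and 0.12 (SE 0.55, adjusted p = 0.927) for Psmb9, with intervals of -0.88 to 1.35 and -1.12 to 1.35. These intervals leave room for a 2-fold change. As a share of the subunit it replaces, Psmb8 stood at 4.64% to 21.2% of Psmb5, Psmb9 at 1.69% to 12.6% of Psmb6 and Psmb10 at 4.05% to 9.46% of Psmb7 on the FPKM scale. In every library the standard subunits stood above their replacements.

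PA28, the cap of Psme1 and Psme2 that is also raised by interferon, was far more abundant and followed the same libraries. Psme1 had 98.6, 65.7 and 82.4 FPKM at 1 h, 66.3, 106 and 83.6 FPKM at 6 h and 93.9, 82.2 and 63.5 FPKM in control. Psme2 had 85.3, 70.7 and 62.3 FPKM at 1 h, 48.3, 94.4 and 87.5 FPKM at 6 h and 81.2, 81.7 and 62.4 FPKM in control. The highest library of both was 6 h replicate 2, and the groups overlapped in every comparison. Over the 9 libraries the log2 values of Psmb8, Psmb9, Psmb10, Psme1 and Psme2 correlated with each other at a Pearson r of 0.78 to 0.97 (10 pairs, median 0.91). With the constitutive subunits their r was -0.67 to 0.81 (160 pairs, median 0.39). The libraries share any mixture of cells and any scaling, and all tested genes had a median r of 0.075. Of 12 tested genes of interferon response and antigen presentation, 0 were called in any comparison, and their r with the mean of the 3 immunoproteasome genes was 0.47 to 0.96, with a median of 0.66. For the 24 partners of the proteasome read below, that r was -0.79 to 0.70, with a median of -0.34. Among those partners Uba1 (0.70) and Shfm1 (0.65) lay in the range of the interferon list. The same r over all genes is not given here. Irf7, a transcription factor of the interferon response, had 96.6, 31.2 and 15.2 FPKM at 1 h, 7.82, 50.4 and 24.2 FPKM at 6 h and 35.7, 11.7 and 14.7 FPKM in control. Its highest library, 1 h replicate 1, was also the highest for Psmb8, and its lowest, 6 h replicate 1, the lowest for all 3.

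Markers of immune cells were set beside these values. The sum of 6 macrophage markers was 35.3, 161 and 210.4 FPKM at 1 h, 220.2, 193 and 36.5 FPKM at 6 h and 44.9, 30.2 and 75.4 FPKM in control. It was high both in 6 h replicate 1, where Psmb8, Psmb9 and Psmb10 were lowest, and in 6 h replicate 2, where Psmb9, Psmb10, Psme1 and Psme2 were highest, and low in 1 h replicate 1, where Psmb8 was highest. Lyz2 made up most of this sum in each library. Csf1r, on the same list, was not low in 1 h replicate 1, at 6.08 FPKM beside 2.38 to 3.94 FPKM in control. The other markers of the list lay within their control range there. The r of the 4 tested macrophage markers with the mean of the 3 immunoproteasome genes was -0.54 to -0.10. The sum of 3 lymphocyte markers was 0.12 to 1.09 FPKM, with Cd79a and Nkg7 under 0.5 FPKM in every library. The part of other cells in these values was not tested.

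**Figure D4:**
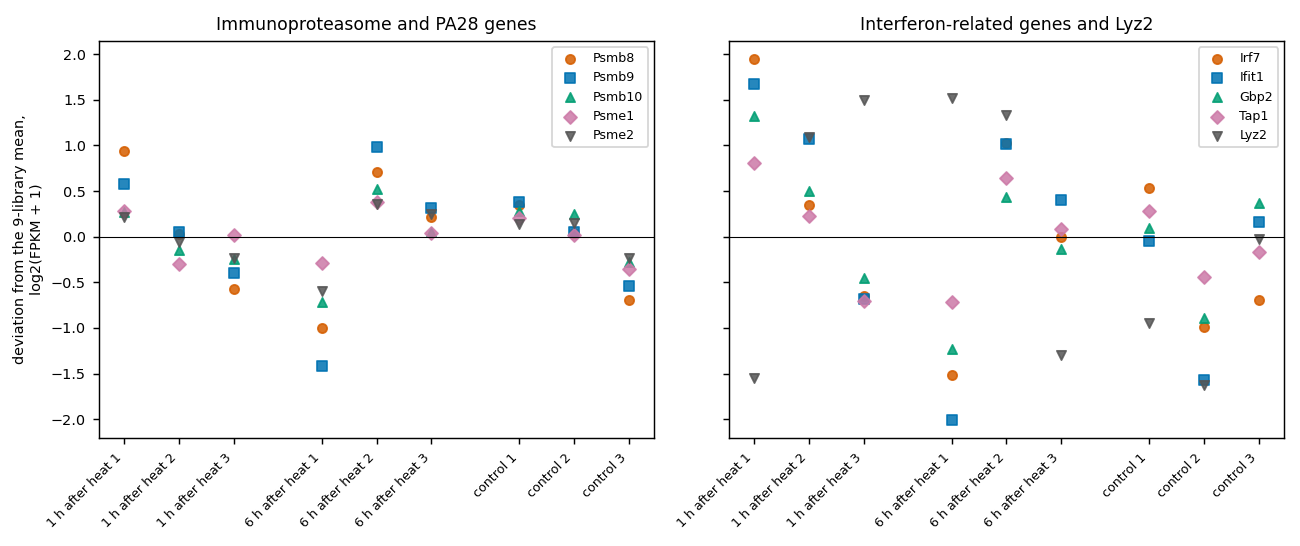
Deviation of each library from the 9-library mean on the log2(FPKM + 1) scale, for Psmb8, Psmb9, Psmb10, Psme1 and Psme2 (left) and for 4 interferon-related genes and the macrophage marker Lyz2 (right), with 1 h, 6 h and control libraries in that order. The left genes are all low in 6 h replicate 1 and all high in 6 h replicate 2, and Lyz2 is high in both of these libraries.

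The remaining activators differed from each other. Psme4 encodes PA200, a large cap that works without ubiquitin and is known for the breakdown of acetylated histones in the germ line. Psme4 (NCBI gene 103554, chromosome 11, 30771775 to 30880361, plus strand) had 12.9, 12.7 and 10.4 FPKM at 1 h, 8.84, 7.13 and 11.2 FPKM at 6 h and 11.1, 15.1 and 18.01 FPKM in control. All 3 of its 6 h values lay under control 2 and 3, but 6 h replicate 3 overlapped control 1. The change at 6 h was -0.64 (SE 0.21, 95% interval -1.12 to -0.16, unadjusted p = 0.0138), and over all genes tested it did not pass (adjusted p = 0.877). It was -0.49 without control 3 and -0.35 without control 3 and 6 h replicate 2. Psme4 did not follow the subunits across libraries, with a mean r of -0.27 to the 32 constitutive ones.

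Psme3, the nuclear activator PA28 gamma, had 49.2, 48.2 and 46.9 FPKM at 1 h, 74.8, 49.9 and 60.8 FPKM at 6 h and 54.5, 66.3 and 56.4 FPKM in control. Its 1 h libraries lay under all the others, a change of -0.29 (SE 0.16, adjusted p = 0.518) against control. The 6 h libraries lay 0.34 higher than at 1 h (SE 0.16, adjusted p = 0.468), with replicate 1 at the top. Psme2b is a single-exon gene that resembles Psme2, so the division of reads between them is uncertain. Psme2b had 4.87, 6.33 and 6.72 FPKM at 1 h, 4.39, 1.26 and 4.47 FPKM at 6 h and 2.99, 1.45 and 6.73 FPKM in control, and its 6 h libraries lay below its 1 h libraries, a change of -0.77 (SE 0.44, adjusted p = 0.535). Psmf1, the inhibitor PI31, had 9.92, 8.96 and 8.84 FPKM at 1 h, 10.9, 10.9 and 10.9 FPKM at 6 h and 9.97, 9.89 and 9.67 FPKM in control. Its 6 h values, at 10.9 ± 0.0265 FPKM (SD, n = 3), lay above the controls at 9.84 ± 0.155 FPKM (SD, n = 3), but the difference of 0.14 (SE 0.12, adjusted p = 0.882) did not pass. Psmc3ip, which is no proteasome gene, had 9.06, 9.49 and 6.74 FPKM at 1 h, 10.8, 10.2 and 11.5 FPKM at 6 h and 10.9, 11.2 and 9.40 FPKM in control, and its change at 1 h was -0.30 (SE 0.16, adjusted p = 0.508).

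The subunits of other tissues were near the floor. Psma8 had 0.34, 0.75 and 0.51 FPKM at 1 h, 0.89, 0.94 and 0.50 FPKM at 6 h and 0.54, 0.40 and 1.17 FPKM in control, an estimated 11 to 38 reads per library, with no order among the groups. Psmb11 had 0.23, 0.22 and 0.17 FPKM at 1 h, 0.10, 1.17 and 0.86 FPKM at 6 h and 0.18, 0.10 and 0.23 FPKM in control. The 6 h replicates 2 and 3 stood apart, at an estimated 98 and 70 reads, while the other 7 libraries had an estimated 8 to 19. In a fit without the filter its 6 h change was 0.49 (SE 0.21, unadjusted p = 0.0497, adjusted p = 0.865). Psmb11 lies 7314 bp from Psmb5 on chromosome 14, on the opposite strand, with no other gene with values between them.

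Library by library, most constitutive subunits were high or low together. The median deviation of the 32 from their 9-library means was -0.087, -0.075 and -0.16 at 1 h, 0.023, 0.097 and 0.13 at 6 h and 0.042, 0.21 and -0.22 in control. The median deviation of all tested genes in control 3 was 0.077, so there most subunits were low while the typical gene was not. Psmd4 (0.091) and Psmd12 (0.017) were not low there. Control 2 was the highest library for 17 of the 32 subunits and control 3 the lowest for 19, so both extremes lay within the untreated group. The same shares over all genes were not counted. The median SD of the 50 genes between replicates was 0.094 at 1 h, 0.16 at 6 h and 0.24 in control, beside 0.15, 0.28 and 0.24 over all genes. The median r between pairs of the 32 was 0.70 (496 pairs, from -0.40 to 0.97). Psmd4 and Psmd12 had the lowest mean r of the 32, at 0.26 and 0.29. Psmg2, Psma2 and Psma5 followed the subunits most closely, with mean r of 0.77, 0.76 and 0.76, and Psme2b and Psme4 least, with -0.65 and -0.27.

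**Figure D5:**
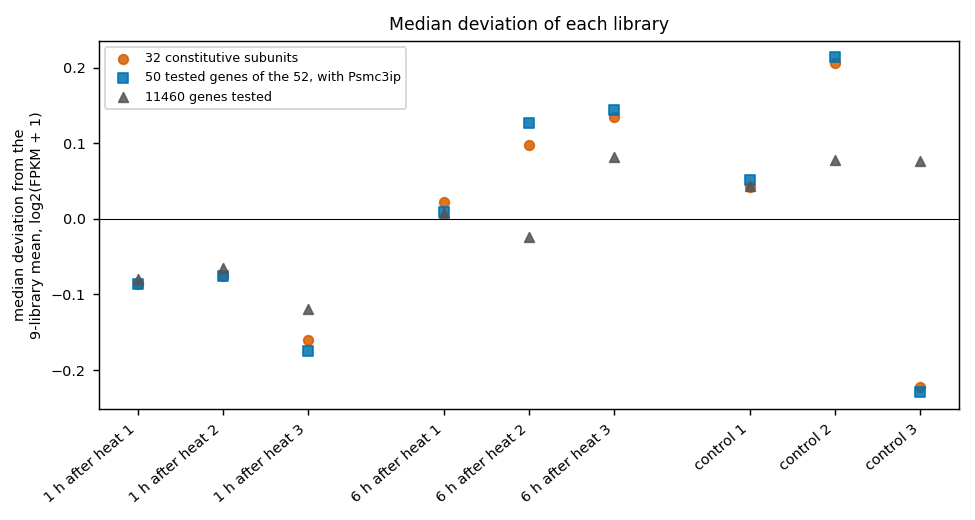
Median deviation of each library from the 9-library mean on the log2(FPKM + 1) scale, for the 32 constitutive subunits (circles), the 50 tested genes of the 52, Psmc3ip included (squares) and all 11460 tested genes (triangles). Control 2 and control 3 are the highest and the lowest library for these 50 genes, at 0.21 and -0.23, with the 1 h libraries between -0.075 and -0.18.

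Partners of the proteasome were also read, from a list of 24 genes with values: the transcription factors that raise its subunits, the enzymes and shuttle proteins that work on it, and others. Of these, 0 were called in any comparison, while p before adjustment lay below 0.05 for 1 in the higher and 2 in the lower direction at 1 h (2.76% and 8.05% of all genes), for 0 and 1 at 6 h (1.27% and 3.35%), and for 1 and 3 at 6 h against 1 h (8.45% and 3.19%). Zfand2a, also called AIRAP, binds the cap under proteotoxic stress, and had 40.1, 56.8 and 36.8 FPKM at 1 h, 21.1, 10.8 and 17.4 FPKM at 6 h and 12.9, 15.6 and 16.4 FPKM in control. Its 1 h libraries lay far above all the others, with a log2 change of 1.49 (SE 0.25, adjusted p = 0.0746) against control. Its 6 h level differed from 1 h by -1.41 (SE 0.25, adjusted p = 0.0615), so the adjusted p of both lay above 0.05. Nfe2l1, or NRF1, the factor that restores proteasome genes when the proteasome is blocked, had 72.05, 68.1 and 84.0 FPKM at 1 h, 78.0, 70.0 and 72.4 FPKM at 6 h and 76.3, 68.0 and 113 FPKM in control. Ddi2, the protease that activates NRF1, had 13.7, 12.2 and 9.71 FPKM at 1 h, 12.1, 5.91 and 9.35 FPKM at 6 h and 8.85, 10.9 and 10.0 FPKM in control. In both the groups overlapped, with log2 changes at 1 h of -0.17 and 0.23. Ubqln2, a shuttle that carries ubiquitinated proteins to the cap, had 16.0, 16.8 and 17.6 FPKM at 1 h, 18.8, 14.4 and 20.7 FPKM at 6 h and 21.9, 25.4 and 27.1 FPKM in control, and its heated libraries lay under the controls at both times. Its log2 change was -0.53 at 1 h (adjusted p = 0.349) and -0.46 at 6 h (adjusted p = 0.877). Usp14, a deubiquitinase on the base, had 24.0, 27.8 and 24.2 FPKM at 1 h, 33.2, 15.6 and 29.7 FPKM at 6 h and 31.4, 35.1 and 29.9 FPKM in control, low at 1 h and in 6 h replicate 2. Uchl5, a further deubiquitinase of the base, had 12.4, 16.5 and 15.3 FPKM at 1 h, 15.2, 13.8 and 19.2 FPKM at 6 h and 18.3, 24.9 and 16.9 FPKM in control. Its 1 h libraries lay under the controls, a difference of -0.41 (SE 0.19, adjusted p = 0.486). Zfand5, which binds the proteasome and speeds degradation, had 13.1, 15.0 and 16.9 FPKM at 1 h, 10.98, 7.58 and 8.53 FPKM at 6 h and 11.03, 12.04 and 11.2 FPKM in control. All 6 h libraries of Zfand5 lay below its 1 h libraries, a difference of -0.68 (SE 0.17, adjusted p = 0.162), with the 1 h libraries above and the 6 h libraries below every control. Hspbp1, an exchange factor of HSP70, had 11.04, 11.2 and 11.6 FPKM at 1 h, 15.9, 15.5 and 14.5 FPKM at 6 h and 15.4, 18.4 and 12.7 FPKM in control. Its 1 h libraries lay below all others, by -0.41 against control (SE 0.15, adjusted p = 0.425), and its 6 h level differed from 1 h by 0.41 (SE 0.15, adjusted p = 0.355). Shfm1, also called Sem1, a small subunit of the lid, had 149, 164 and 154 FPKM at 1 h, 148, 201 and 192 FPKM at 6 h and 180.3, 181 and 139 FPKM in control, and its groups overlapped in each comparison.

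The authors' deposited table gives its own q-values for the same comparisons, made with DEGseq, and calls far more. In the authors' deposited table, 37 of the 52 genes had a q-value of at most 0.001 at 1 h against control, 2 higher (3.85%, beside 11.2% of all genes with a q-value) and 35 lower (67.3%, beside 44%). For 6 h against control the authors' deposited table has 23 such genes, 20 higher (38.5%, beside 15.5%) and 3 lower (5.77%, beside 28.6%). For 6 h against 1 h the authors' deposited table has 44, 42 higher (80.8%, beside 33.5%) and 2 lower (3.85%, beside 15.2%). The median size of the log2 fold change over these called genes in the authors' deposited table was 0.17, 0.15 and 0.26 in these comparisons. A q-value of at most 0.001 together with a 2-fold change was found in the authors' deposited table for 0, 1 and 1 genes, in both cases Psmb11. The signs of the fold changes in the authors' deposited table were those of the group means for all 52 genes. Beside these sizes, the median SD of the 50 tested genes between replicates was 0.094 at 1 h, 0.16 at 6 h and 0.24 in control.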

How the data were processed

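RNA was measured in 9 libraries of mouse testicular peritubular myoid cells. Per the labels' protocols, RNA was extracted with TRNzol and libraries followed BGI's standard protocol. The authors deposited 1 table with a gene per line and FPKM values per library. Tools listed in the submitters' processing notes are RSEM 1.2.12, Bowtie2 2.2.5 and HISAT2 2.0.4, with no role for each, on mm10. The table also holds log2 fold changes and q-values made with DEGseq, per the file headers. Since FPKM divides by the library's total, a strong rise in some transcripts lowers the rest.

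Of 20717 genes listed, 3158 had no values. Depth was estimated from the smallest FPKM steps. In each library 87.7% to 91.7% of low values came within 0.2 read of a whole number (40% by chance). This did not give whole reads for every gene, and a count test was therefore left out. The 11460 genes that reached 1 FPKM in 3 or more libraries were tested with limma 3.58.1 (R 4.3.3) on log2(FPKM + 1), two-sided, with a variance trend and 1 fit of 3 group means to the 9 libraries (6 residual degrees of freedom). Adjustment was by Benjamini-Hochberg over all genes, with calls at an adjusted p below 0.05. Changes on this scale understate those of low genes. Intervals cover the spread between libraries. The fit was tested on simulated data. Tables and figures used pandas 2.3.3, SciPy 1.17.1 and matplotlib 3.10.9.

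The members, lists and alternatives were chosen with earlier results of these data known. Members named with every library's value were a set of 24 from all roles, the 3 with the smallest p in each direction and comparison, and the highest and lowest by mean. Psmc1, Psmd6 and genes named at the end of a range were named after their values were seen. Partners named were the 4 of the list with the smallest p in any comparison and those set by role. Promoters are RefSeq's. The labels number the replicates alike in each group. Deviations from the group means of same-numbered libraries correlated at 0.19, 0.15 and 0.26 between 1 h and control. The differently numbered 1 h replicate 1 and control 2 correlated at 0.17, above the 0.15 of replicate 2, so these values do not settle whether the libraries were pairs. The tests given use no pairing, and their p-values leave out any that exists. The fit with the replicate number as a block is an alternative in the closing section. The same-numbered values were -0.18, 0.041 and 0.014 between 6 h and control and -0.27, -0.10 and -0.35 between 6 h and 1 h.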

Additional observations from a re-analysis of the deposited data

How the results depend on the processing

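No proteasome gene was called in any of the 3 comparisons under any of the 20 alternatives run, and the smallest adjusted p among them was 0.126. The groups of 3 libraries and a median SE of 0.16 limit this to changes of about the width of the intervals given. For 30 named genes, 1800 values were compared with the main ones. The sign differed in 139, of which 3 had a main change larger than 1 SE.

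The counts over all genes moved more. For 1 h against control, 18 genes were called. There were 10 without the filter, 31 with quantile normalization, 47 with only the libraries of both groups in the fit and 8 to 53 leaving out each replicate. For 6 h against control 0 were called, with 0 to 25 leaving out each replicate and 20 without control 3 and 6 h replicate 1. For 6 h against 1 h, 32 were called, with 55 under quantile normalization, 8 to 104 leaving out each replicate and 127 without control 3 and 6 h replicate 1. The cause of these moves was not tested, beyond the smaller number of libraries where some were left out. The median log2 change of the 50 tested genes at 1 h was 0.040 after median-of-ratios scaling, which changed its sign. Leaving out each replicate it was -0.25 to -0.042 at 1 h, -0.038 to 0.17 at 6 h and 0.17 to 0.27 between the times.

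With the replicate number as a block, 15 genes were called at 1 h, 0 at 6 h and 23 at 6 h against 1 h. With the block and only the libraries of the groups compared, the counts were 42, 0 and 8. The block changed no call of a proteasome gene. The fits without control 3 and 6 h replicate 1, those with the block and 2 groups, and the scaled or reduced counts of genes without overlap or on either side of 0 by role were chosen after seeing the data.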
